A study of Mus musculus with 2 samples.

Results

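The proteasome subunit genes of mouse hematopoietic stem cells (HSCs) were compared between cells sorted as negative and as positive for the nuclear chromatin organizer SATB1, known from lymphocyte development. Members were chosen by name: every gene symbol that starts with Psm, a letter from a to g and a digit, leaving out the inducible subunits Psmb8, Psmb9 and Psmb10. This gave 46 of the 23210 gene symbols used. Of these, 45 encode proteasome subunits, assembly factors, activators or an inhibitor; the other, Psmc3ip, carries the name of a subunit it binds but encodes a cofactor of meiotic recombination, and its values are given apart. The study set out to measure the change of each gene between the 2 kinds of HSC. The cells were LSK cells (lineage-negative, Sca-1-positive, Kit-positive) gated as CD150-positive and Flt3-negative. Both groups carried the Satb1-Tomato reporter, a red fluorescent protein that reports Satb1; 1 library came from Tomato-negative and 1 from Tomato-positive cells. The sources used here do not give strain, age, sex, reporter allele number or how many animals each library pooled.

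The proteasome is the barrel-shaped protease that degrades proteins tagged with ubiquitin. Its core particle stacks alpha rings, which form the gate, on beta rings, which hold the proteolytic sites; a regulatory particle made of a base, with a ring of ATPases that unfold and thread the substrate, and a lid, which removes the ubiquitin chain, sits on the gate. Dedicated chaperones build both parts, and alternative caps and an inhibitor bind the same gate. HSCs are known for low protein synthesis and for sensitivity to disturbed protein turnover.

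Levels are deposited FPKM values (fragments scaled by transcript length and by library total), which are per length and are set side by side between genes of a library. The sources used here do not give the annotation behind them, and its effect on levels between genes was not tested. With 1 library per group there is no replicate spread and no test; differences describe these 2 libraries. The log2 ratio is log2((SATB1-positive FPKM + 1)/(SATB1-negative FPKM + 1)), which understates the differences of low genes. Folds are plain ratios of FPKM, and the range after a fold is an exact (Clopper-Pearson) 95% interval for counting error only, from fragment numbers estimated with depths of about 34920000 (SATB1-negative) and 26680000 (SATB1-positive) fragments. Fragments copied by PCR are not independent molecules, so these intervals can be too narrow. In sorted bulk cells, fewer cells of a type and less RNA per cell cannot be told apart.

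The labels were checked on the sort genes. Satb1 was at 2.37 FPKM in Tomato-negative (SATB1-negative) and 8.26 FPKM in Tomato-positive (SATB1-positive) cells, and Kit, Ly6a (Sca-1) and Slamf1 (CD150) were present in both. Flt3, gated against at the surface, was at 17.3 and 27.1 FPKM. Where a pair of values follows without further words, the SATB1-negative library comes first. Lists of other cells moved between the libraries: all 12 T and NK cell markers, all 6 basophil and mast cell markers and all 5 granulocyte progenitor markers were higher in the SATB1-positive library, with summed levels of 167 and 371, of 166 and 588 and of 1229 and 3234 FPKM. Nkg7 alone made up 152 and 313 FPKM of the T and NK cell sums. All 9 HSC markers were lower there (summed 285 and 183 FPKM), all 16 G2 and M phase genes were higher (902 and 1316 FPKM), and the 5 B cell markers were under 1 FPKM in both, with Pax5 listed at 0 in the SATB1-positive library. The erythroid list was split, with 3 of 6 markers above 0 (76.1 and 83.5 FPKM). The part of these cells and phases in the proteasome ratios was not tested.

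Start sites are shown first for the members with at least 10 FPKM whose 2 values lay furthest apart. Of the 4 members past a 1.2-fold difference, 3 have a promoter window in the RefSeq table (build GRCm38.p6, the assembly that mm10 names), each read on the plus strand, 5′ to 3′. Capitals mark matches to any of 5 motifs searched on both strands: the antioxidant response element core TGACNNNGC, which NFE2L1, the activator of proteasome genes, can bind; the NF-Y box CCAAT; the nuclear respiratory factor 1 site; the ETS site CCGGAAG; and the TATA box TATAAA. Matches were counted also where they overlapped another motif. For Psmd13 the 84 bases between its start and that of the oppositely directed gene Sirt3 are shown, since they are all that separates the pair in RefSeq, at chr7:140882310-140882393; for Psmd11 and Psmg4 the 250 bases before the start, at chr11:80428365-80428614 and chr13:34162714-34162963.
Psmd13: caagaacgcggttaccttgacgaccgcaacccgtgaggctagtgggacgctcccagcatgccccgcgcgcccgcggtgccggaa
Psmd11: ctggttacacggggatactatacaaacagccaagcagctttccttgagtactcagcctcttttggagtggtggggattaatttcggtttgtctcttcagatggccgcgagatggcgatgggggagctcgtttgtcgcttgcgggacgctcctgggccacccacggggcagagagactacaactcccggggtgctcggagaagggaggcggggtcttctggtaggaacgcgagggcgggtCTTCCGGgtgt
Psmg4: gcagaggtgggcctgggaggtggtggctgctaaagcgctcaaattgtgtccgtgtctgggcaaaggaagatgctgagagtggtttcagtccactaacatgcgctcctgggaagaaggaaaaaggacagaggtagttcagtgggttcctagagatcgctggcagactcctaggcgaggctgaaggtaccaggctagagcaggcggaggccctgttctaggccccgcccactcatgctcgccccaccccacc

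The Psmd11 window holds 1 ETS match, close to the start, and the other 2 sequences hold no match. No match says only that these letters are not in the window. The Psmd13 bases end in the ETS site without its last letter, and a match across the start was not searched. Over 250 bases the start of Psmd13 has 60.4% G and C, close to the 59.2% of both other windows.

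As a set, the proteasome genes were abundant and nearly level between the libraries. Their summed level was 4784 FPKM in the Tomato-negative and 4828 FPKM in the Tomato-positive library, 0.961% and 0.972% of all FPKM. Of the 45 genes, 44 reached 1 FPKM in either library, 43 reached 10 FPKM, and 35 were above 50 FPKM in both. Among the 44, 22 had a log2 ratio above 0 and 22 below, where 49% of the 11873 genes with at least 1 FPKM and 50.3% of the 7561 genes with at least 10 FPKM were above 0. The median log2 ratio was -0.0038, and 29 of the 43 plain folds of members with at least 10 FPKM were within 1.1-fold of equal, against 45.2% of all genes at that level.

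No member with at least 5 FPKM differed by 2-fold on the (FPKM + 1) scale; among all genes at that level, 1.31% were 2-fold higher and 0.688% 2-fold lower. A smaller threshold of 1.2-fold on the (FPKM + 1) scale, with 10 FPKM or more in the higher of both values, was passed by 2 members as higher (Psmd13 and Psmd3, both of the lid; 14.5% of all genes) and by 2 as lower (Psmd11 of the lid and Psmg4, an assembly factor; 12.9% of all genes). Together these were 9.30% of the 43 members with at least 10 FPKM, against 27.4% of all genes at that level and 25% of genes with at least 50 FPKM. The median absolute log2 ratio of those 43 members was 0.10, that of all genes with at least 10 FPKM 0.15. Counting intervals lay above 1 for 16 of the 43 members and below 1 for 11. Among 6831 genes with at least 10 FPKM and estimated fragments in both libraries, 35.8% lay above 1 and 32.6% below. Among members with at least 50 FPKM, 24 of 37 intervals did not hold 1, against 76.9% of 2111 genes.

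**Figure D1:**
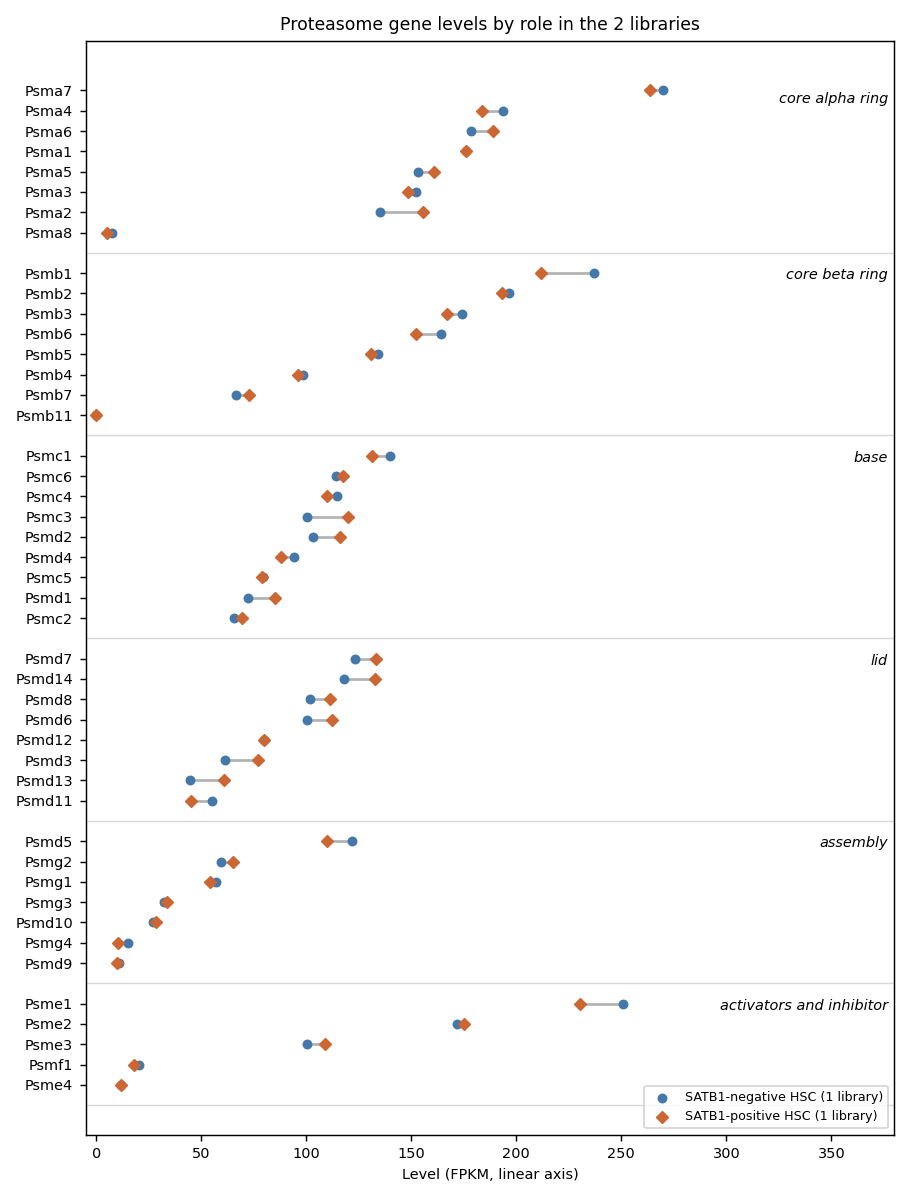
Level in FPKM (linear axis) of the 45 proteasome genes in the SATB1-negative (circles) and the SATB1-positive library (diamonds), 1 library each, grouped by role and ordered by mean level. Most pairs of points lie close together, and Psma8 and Psmb11 lie near 0.

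The core rings had the highest role medians, 165 and 168 FPKM for the alpha ring and 164 and 152 FPKM for the beta ring. The alpha ring forms the gate, and its 7 general subunits ran from 135 to 270 FPKM in the Tomato-negative and from 148 to 263 FPKM in the Tomato-positive library, a spread of 1.99-fold and 1.78-fold between the highest and the lowest subunit. The most abundant member of all, Psma7, was at 270 FPKM in the Tomato-negative and 263 FPKM in the Tomato-positive library, 0.976-fold (0.941 to 1.01). Psma2 was at 135 and 156 FPKM, the highest ratio of the ring at 1.15-fold (1.12 to 1.18). Psma4 was at 193 and 184 FPKM, the lowest among the general subunits at 1.05-fold lower (1.01 to 1.09), and 31.5% of its 50-base words are shared with other genes. Psma1 was at 176 FPKM in both libraries. Psma6 was at 178 and 189 FPKM. Psma3 was at 152 and 148 FPKM and Psma5 at 153 and 161 FPKM, and 78.5% and 55.4% of their 50-base words are found in further transcripts, those of other genes, so their levels are uncertain. Of the 8 genes of the ring, 4 had a log2 ratio above 0 and 4 below, with a median of -0.02.

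Psma8, the testis counterpart of Psma7, was the exception in level. It was at 7.42 FPKM in the Tomato-negative and 5.001 FPKM in the Tomato-positive library, 1.48-fold lower in the latter (1.25 to 1.77), on about 385 and 198 fragments. It lay under the 10 FPKM minimum of the 1.2-fold rule, and no 50-base word of its transcript occurs in another gene's transcripts.

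The beta ring carries the catalytic subunits, and 6 of its 7 measured genes were slightly lower in the Tomato-positive library (median log2 ratio -0.04). Among all genes with at least 10 FPKM, 50.3% were above 0. The counting intervals of Psmb2, Psmb3, Psmb4 and Psmb5 held 1. Psmb6, the caspase-like site, was at 164 and 152 FPKM, 0.927-fold (0.879 to 0.977). Psmb5, the chymotrypsin-like site and the main target of proteasome inhibitor drugs, was at 134 and 131 FPKM, 0.974-fold (0.924 to 1.03). Psmb7, the trypsin-like site, was at 66.5 and 72.7 FPKM, the only 1 of the 7 above 0, at 1.09-fold (1.03 to 1.16). Psmb7 thus had the lowest level of the catalytic genes in both libraries, and Psmb6 the highest. Psmb1, a structural subunit and the most abundant of the ring, had its lowest ratio, at 237 and 212 FPKM, 0.894-fold (0.870 to 0.918). The other structural genes were nearer to equal: Psmb2 at 197 and 193 FPKM, Psmb3 at 174 and 167 FPKM and Psmb4 at 98.3 and 95.9 FPKM. Words shared with other genes made up 55.8% for Psmb3 and 57.1% for Psmb5, which are uncertain for this reason. Psmb11, the beta subunit of thymic epithelium, was at 0.0569 and 0.0093 FPKM, about 8 and 1 fragments.

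The count of lower beta genes moved with transcript length. Among all genes with at least 10 FPKM, the median log2 ratio was -0.09 for transcripts under 1000 bases and 0.06 for those of 3000 bases or more, and it was higher in each longer bin of the 5. Core genes are short (median transcript 1183 bases for the alpha and 1030 for the beta ring) and base and lid genes longer (1636 and 1743 bases). With each ratio centred on the median of its length bin, 5 of 7 beta genes lay above 0 in place of 1, the beta median was 0.03, and the lid median was 0.17. Of all 44 measured members, 29 then lay above 0 in place of 22. Without members that overlap another gene's exons or share over 20% of their words, 0 of 4 beta genes lay above 0.

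**Figure D2:**
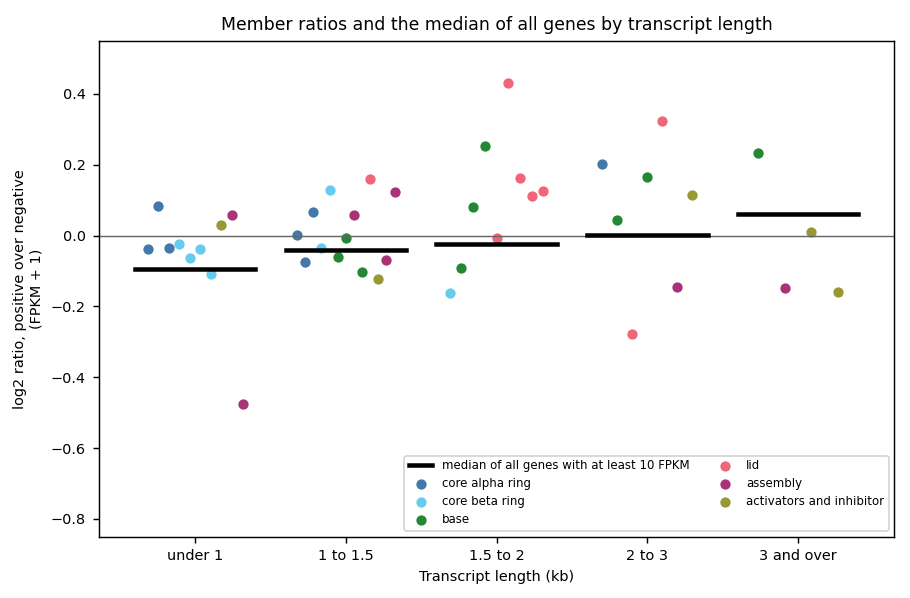
Log2 ratio (FPKM + 1 scale) of the 43 members with at least 10 FPKM against bins of transcript length in kb, coloured by role; black bars are the medians of all genes with at least 10 FPKM in each bin. The bars climb from -0.09 to 0.06, most core genes under 1 kb lie above their bar, and lid genes lie above theirs except Psmd11 in the bin of 2 to 3 kb.

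The inducible subunits, which replace the catalytic 3 in the immunoproteasome, are not members but share their sites. Psmb8 was at 287 and 300 FPKM, Psmb9 at 107 and 88.8 FPKM and Psmb10 at 78.5 and 68.3 FPKM. The inducible gene made up 68.2% (67.4 to 69.0) of the Psmb8 and Psmb5 pair in the Tomato-negative and 69.7% (68.7 to 70.6) in the Tomato-positive library. These ranges overlap, and the level of Psmb5 is uncertain because of its shared words. For Psmb9 and Psmb6 the shares were 39.6% (38.5 to 40.7) and 36.9% (35.6 to 38.2). For Psmb10 and Psmb7 they were 54.1% (52.8 to 55.5) and 48.4% (46.9 to 50.04), the widest gap of the 3 pairs. The order of the pairs was the same in both libraries.

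The base, which binds and unfolds the substrate, lay at a median of 101 FPKM in the Tomato-negative and 110 FPKM in the Tomato-positive library, 0.613 and 0.683 times the core medians. Of its 9 genes, 5 had a log2 ratio above 0 (median 0.04). The 6 ATPase genes split evenly, 3 above and 3 below. Psmc3 was at 101 and 120 FPKM, the highest ratio of the base at 1.19-fold (1.15 to 1.24) and just under the 1.2-fold rule. Psmc1, the most abundant ATPase gene, was at 140 and 131 FPKM, 0.938-fold (0.904 to 0.973). The other ATPase genes, Psmc2, Psmc4, Psmc5 and Psmc6, were within 1.1-fold, with Psmc5 nearest to equal at 79.3 and 78.9 FPKM. Without the members with overlaps or shared words, 2 of 6 base genes were above 0, with a median of -0.03.

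The scaffold genes of the base stood on the higher side. Psmd1 was at 72.2 and 85.02 FPKM, 1.18-fold (1.14 to 1.22), and Psmd2 at 103 and 116 FPKM, 1.12-fold (1.09 to 1.16). Psmd4, a ubiquitin receptor, had the lowest ratio of the base, at 94.4 and 87.8 FPKM, 0.931-fold (0.884 to 0.980). Sequence is shared here: 26.4% of the 50-base words of Psmd2 occur in other genes' transcripts. In GENCODE, exons of Psmd1 overlap those of 2 other genes, with 0 bases shared between RefSeq-linked transcripts.

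Of the 8 lid genes, 2 were past 1.2-fold as higher and 1 as lower, against 14.5% and 12.9% of all genes with at least 10 FPKM. The median log2 ratio of 0.14 was the highest of the role groups. Above 0 were 6 of the 8, against 50.3% of all genes at that level. Without those with overlaps or shared words, 4 of 6 were above 0 and the median was 0.12. The group's summed level was 685 FPKM in the Tomato-negative and 752 FPKM in the Tomato-positive library, 1.098-fold. Psmd14, the deubiquitinating enzyme of the lid, was at 118 and 132 FPKM, 1.12-fold (1.08 to 1.17), and its partner Psmd7, the most abundant lid gene, at 123 and 133 FPKM, 1.08-fold (1.04 to 1.12). Psmd6 was at 100.4 and 112 FPKM and Psmd8 at 102 and 111 FPKM; both are scaffold subunits of the lid. Psmd12, another scaffold subunit, was at 80.1 and 79.6 FPKM.

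Psmd3, a lid scaffold subunit on chromosome 11 (98682554 to 98695979, plus strand, mm10), was at 61.4 FPKM in the Tomato-negative and 77.2 FPKM in the Tomato-positive library, 1.26-fold (1.203 to 1.31). None of its 50-base words occurs in another gene. In GENCODE, 17 exon bases overlap a noncoding transcript on the other strand, with 0 between RefSeq-linked transcripts. Psmd11, which helps hold the regulatory particle on the core, was the lid gene that went the other way. It lies on chromosome 11 (80428615 to 80473248, plus strand) and was at 55.2 and 45.3 FPKM, 1.22-fold lower in the Tomato-positive library (1.17 to 1.27). Of its words, 18.9% occur in other transcripts, all of them in A730017L22Rik, which was at 2.85 and 3.58 FPKM.

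Psmd13 had the highest ratio of all members, at 44.8 FPKM in the Tomato-negative and 60.8 FPKM in the Tomato-positive library, 1.36-fold (1.29 to 1.43) and above 93.8% of genes with at least 10 FPKM. This lid subunit lies on the plus strand of chromosome 7 (140881968 to 140898643 in GENCODE), start to start with Sirt3, the mitochondrial NAD-dependent deacetylase gene, named here after its values were seen. Sirt3 was at 66.9 and 49.1 FPKM, 0.735-fold (0.690 to 0.781). GENCODE release M21 gives the pair 342 shared exon bases (152 between RefSeq-linked transcripts), whereas in the RefSeq table the starts are apart by the 84 bases printed above. The estimated fragments of both genes together were 5621 and 4480, which per unit of depth is 1.04-fold (1.003 to 1.09). The sources used here do not give the annotation or strand setting behind the deposited values, and the part of the overlap in either value was not tested.

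Psmc3 and its partner also differed in opposite directions, by 0.25 and -0.24 on the log2 (FPKM + 1) scale, but at unequal levels. In GENCODE, Psmc3 shares 215 exon bases with Slc39a13, a zinc transporter gene, but 0 between RefSeq-linked transcripts. Slc39a13 was at 14.8 and 12.4 FPKM, 0.837-fold. The fragments of both genes together were 1.16-fold (1.11 to 1.203) per unit of depth. Psmb7 shares 405 exon bases (405 between RefSeq-linked transcripts) with the kinase gene Nek6, at 9.36 and 10.98 FPKM, and both had ratios above 0. Psmc3ip, the member that is no subunit, was at 20.4 and 21.7 FPKM, 1.06-fold (0.957 to 1.18), and its overlapping neighbour Mlx at 24.01 and 25.7 FPKM.

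**Figure D3:**
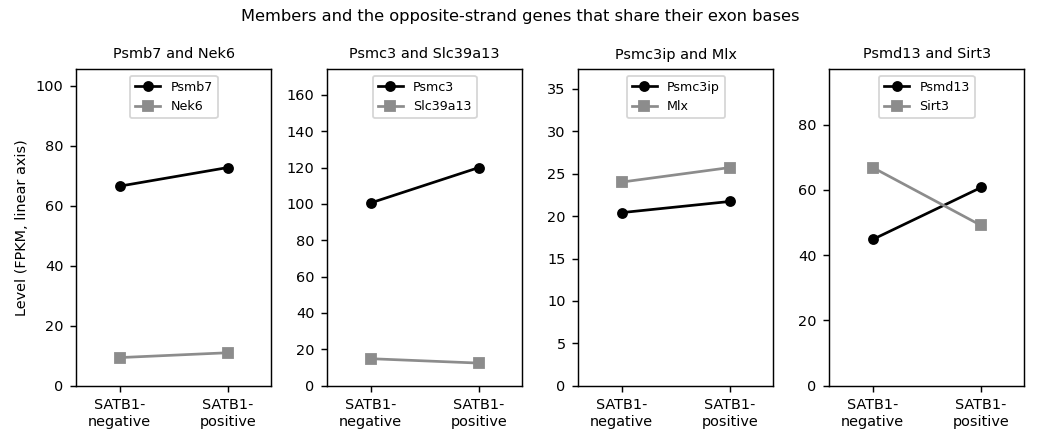
Level in FPKM (linear axes from 0) of 4 members (black circles) and opposite-strand protein-coding genes (grey squares) in the 2 libraries, 1 library per point. Each pair shares exon bases in GENCODE. Only the lines of Psmd13 and Sirt3 cross; those of Psmc3 and Slc39a13 run in opposite directions, and those of Psmb7 and Nek6 and of Psmc3ip and Mlx run the same way.

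Assembly genes were the least abundant role group, with a median of 32.5 FPKM in the Tomato-negative and 33.8 FPKM in the Tomato-positive library, and spanned 11.05-fold and 11.1-fold from lowest to highest. Of the 7 genes, 3 were above 0 and the median log2 ratio was -0.07. Psmd5, a chaperone of the base, was the most abundant at 122 and 109.97 FPKM, 0.902-fold (0.881 to 0.923). The other base chaperones, Psmd10 (gankyrin) and Psmd9, were at 27.1 and 28.2 FPKM and at 11.04 and 9.88 FPKM. In GENCODE, Psmd9 shares 1849 exon bases with a noncoding gene on the other strand, but 0 between RefSeq-linked transcripts.

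Alpha ring assembly relies on paired chaperones. Psmg1 was at 56.8 and 54.1 FPKM and its partner Psmg2 at 59.5 and 64.9 FPKM, the highest ratio of the group at 1.09-fold (1.018 to 1.17). Psmg3 was at 32.5 and 33.8 FPKM, while its partner Psmg4 was at 14.9 and 10.4 FPKM, 1.43-fold lower in the Tomato-positive library (1.07 to 1.92). Of the words of Psmg3, 27.6% occur in Gm26938. In GENCODE these genes share 280 exon bases on the same strand, with 0 between RefSeq-linked transcripts. Psmg4 lies on chromosome 13 (34162964 to 34178173, plus strand), its shortest RefSeq-linked transcript is 474 bases, and its value rests on about 140 and 75 fragments, so its interval is the widest of the 4 members past 1.2-fold. With a pseudocount of 5 the Psmg4 log2 ratio was -0.37.

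Alternative caps and the inhibitor stayed within 1.2-fold. Psme1 and Psme2, the interferon-inducible cap subunits that form 1 ring together, were at 251 and 230 FPKM and at 172 and 175 FPKM; 62.1% of the words of Psme2 occur in its near-identical copy Psme2b, so its level is uncertain. Psme3, the nuclear cap, had the highest ratio of the group, at 100.4 and 109 FPKM, 1.08-fold (1.05 to 1.12). Psme4, a cap known from sperm and DNA repair, was at 11.6 and 11.7 FPKM. Psmf1, named as an inhibitor of the core, had the lowest ratio, at 20.4 and 18.1 FPKM, 0.890-fold (0.837 to 0.946).

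**Figure D4:**
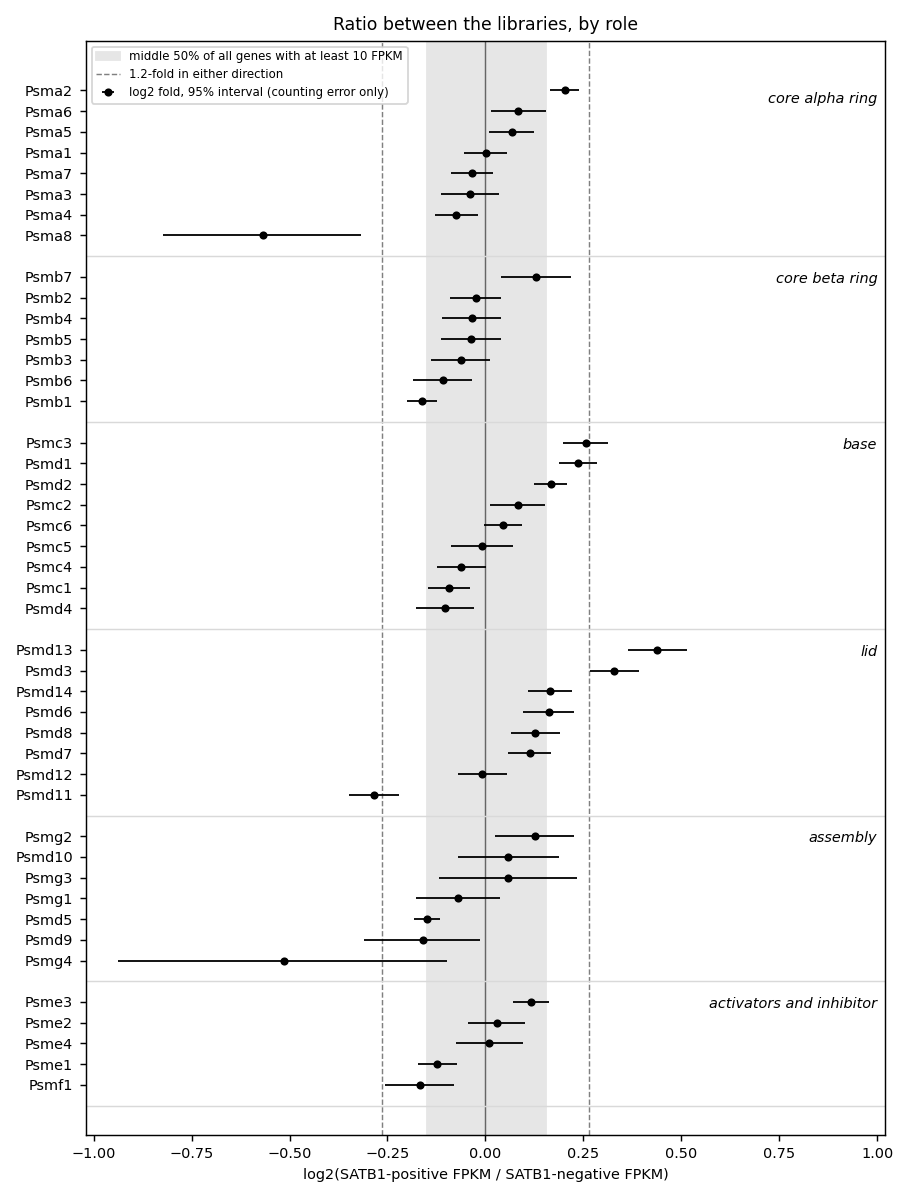
Log2 of the plain FPKM ratio (SATB1-positive over SATB1-negative) for the 44 members with at least 1 FPKM, by role; bars are 95% intervals for counting error only, dashed lines mark 1.2-fold and the grey band holds the middle 50% of all genes with at least 10 FPKM, on the (FPKM + 1) scale. The points of Psmd13 and Psmd3 lie beyond the right dashed line, and those of Psmd11, Psmg4 and Psma8 beyond the left.

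Genes around the proteasome also lay on both sides of 0. Of 9 proteasome genes named otherwise, 4 were above 0. On the (FPKM + 1) scale, 1 of the 9 was past 1.2-fold as higher and 1 as lower. Among all genes with at least 10 FPKM these shares were 14.5% and 12.9%. Pomp, the maturation factor of the core, was the most abundant and the lowest of this list, at 202 and 163 FPKM, 0.807-fold (0.781 to 0.833), and Uchl5, a deubiquitinase on the base, the highest, at 63.5 and 76.99 FPKM, 1.21-fold (1.15 to 1.27). Among 6 measured regulators of proteasome genes, 4 were above 0. Nfe2l1, the activator, was at 25.7 and 29.8 FPKM, and Ddi2, the protease that processes it, had the highest ratio at 10.8 and 14.1 FPKM, 1.2996-fold (1.24 to 1.36); Stat3 was the most abundant and lowest, at 73.6 and 65.6 FPKM.

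Upstream of the proteasome, Ubb, a polyubiquitin gene, was at 3337 and 2907 FPKM, 0.871-fold (0.864 to 0.878). Uba1, the main ubiquitin-activating enzyme, was at 110 and 126 FPKM, 1.15-fold (1.12 to 1.18). In the list of shuttle factors and the p97 unfoldase, 4 of 10 measured genes were above 0. Vcp, which encodes p97, was the most abundant at 238 and 249 FPKM; its cofactor gene Nploc4 had the highest ratio, at 26.6 and 32.2 FPKM, and Rad23b the lowest, at 20.6 and 18.3 FPKM.

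Related complexes had medians near 0 as well. The COP9 signalosome, a complex built like the lid, had 5 of 9 genes above 0 and a median log2 ratio of 0.05, beside 0.14 for the lid. On the (FPKM + 1) scale, 1 of its 9 genes was past 1.2-fold as higher and 1 as lower. Cops5, its counterpart of Psmd14, was at 53.7 and 71.1 FPKM, 1.32-fold (1.26 to 1.395), and Cops7a at 69.7 and 54.5 FPKM, 0.782-fold (0.735 to 0.831); the most abundant was Cops3, at 109 and 115.5 FPKM. The CCT chaperonin, another stacked-ring complex, had 4 of 8 genes above 0, a median of 0.01 and 0 genes past 1.2-fold. Among all genes with at least 10 FPKM, 27.4% were past 1.2-fold in either direction. Its most abundant gene Cct5 was at 411 FPKM in both libraries, Tcp1 had the highest ratio at 191 and 226 FPKM and Cct4 the lowest at 406 and 342 FPKM.

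Promoter windows were available for 37 of the 45 genes. An ETS match stood in 11 of them, 29.7%, against 9.25% of all 15547 windows and 16.6% of the 5522 windows of genes with at least 10 FPKM. By role these were 5 of 8 base, 3 of 6 lid, 2 of 5 activator and inhibitor, 1 of 6 assembly and 0 of 12 core windows. A nuclear respiratory factor 1 match stood in 6 (16.2%, against 10.2% of genes with at least 10 FPKM), 3 of them in the alpha ring, and an NF-Y box in 13 (35.1% against 36.9%), 5 of them among the 7 alpha ring windows. The antioxidant response element core stood in 5, those of Psmb5, Psmb6, Psmc6, Psmd12 and Psmd9 (13.5% against 12.5%), and a TATA box in 3 (8.11% against 5.87%). The base matches are printed with 10 bases on either side, in each gene's own direction, since the base held the most of them; capitals mark the ETS match or its reverse complement.
Psmc1, chr12:100110164-100110190, plus strand: ggtggatgcaCTTCCGGcggtggcgat
Psmc2, chr5:21785181-21785207, plus strand: ccagtgagcaCTTCCGGgatggggctc
Psmc6, chr14:45329714-45329740, plus strand: ggcgggccagCCGGAAGgggcggagcc
Psmd2, chr16:20651616-20651642, plus strand: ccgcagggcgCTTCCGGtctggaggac
Psmd4, chr3:95042723-95042749, minus strand: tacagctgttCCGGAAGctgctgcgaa

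These matches lie between 19 and 118 bases before the RefSeq starts. A match is a description of letters, and the 5 base carriers had log2 ratios on both sides of 0, from -0.10 for Psmd4 to 0.17 for Psmd2. The median promoter of members had 57.6% G and C and a CpG ratio (observed over expected) of 0.772, beside 60% and 0.770 for genes with at least 10 FPKM.

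Start regions shared with a neighbour were counted. In GENCODE, 11 of the 45 genes (24.4%) begin within 1000 bases of a protein-coding gene on the other strand, against 18.6% of 6750 protein-coding genes with at least 10 FPKM. Among them, Psmb1 stands beside Tbp, the TATA-binding protein gene, at 36.5 and 33.6 FPKM, and both had ratios below 0. Psmc2 stands 32 bases from Dnajc2, at 70.4 and 87.8 FPKM, and Psma2 75 bases from the mitochondrial ribosomal protein gene Mrpl32, at 56.3 and 55.3 FPKM. These neighbours were named after their values were seen.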

How the data were processed

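RNA of 2 libraries, 1 per group, was prepared with the Clontech SMARTer Stranded kit, per the labels' protocols. Values as the authors deposited them are FPKM, listed by gene symbol. Cufflinks 2.2.1, SAMtools 0.1.19, TopHat2 2.0.13, Bowtie2 2.2.3 and the build mm10 appear in the submitters' processing notes; the sources used here do not give settings, annotation or strand setting. In each file 25 of 23235 rows had symbols turned into dates and were left out.

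Depth was estimated from low FPKM of genes with 1 exon and 1 transcript (GENCODE M21). At the depths chosen, 60.4% of 207 and 60.2% of 231 values were whole fragments within 0.05, with an offset of 205 bases for fragment length. A depth fixed beforehand would give about 10%. Depth and offset were chosen for the highest share among those tried, so the best share by luck would exceed 10%. Fragments per gene used the shortest RefSeq-linked transcript; 89.6% of symbols matched GENCODE. The estimate and the fold rules were tested on simulated data. Role medians cover members with at least 1 FPKM. Words shared between genes are 50 bases long, counted over GENCODE transcripts on both strands.

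The members and lists were chosen with earlier results of these data known. Named genes were, per role, the most abundant, highest and lowest member with at least 10 FPKM, members past 1.2-fold, those under 1 FPKM and the catalytic genes; per other list, the most abundant, highest and lowest. The list of ubiquitin and activating-enzyme genes is not reported in full here. Other genes were given for context, and all choices of neighbours followed their values. Alternatives were pseudocounts of 0.1 and 5, 3 scalings, other filters and thresholds; 2 were added after seeing the data, centring by transcript length and leaving out members with shared sequence. Python 3.11.15, pandas 2.3.3 and scipy 1.17.1 were used.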

Additional observations from a re-analysis of the deposited data

How the results depend on the processing

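No replicate could be left out, and no paired analysis was possible because each group has 1 library. The median log2 ratio over all members ran from -0.0092 to 0.06 over the settings tried, and that of the lid from 0.12 to 0.17. The median changed sign in the beta ring (0.03) and the alpha ring (0.06) centred by transcript length, in the activators (-0.05) under the same centring and in the base (-0.03) without members with shared sequence; it was also just above 0 in the alpha ring, at 0.0002, with at least 10 FPKM or without shared sequence. Over all members it was 0.06 centred by length and 0.0002 with at least 10 FPKM. The count of members past 2-fold was 0 in all 8 settings tried for it. TPM, median-ratio and upper-quartile scaling moved the median of all genes by -0.0052 to 0.0030 on the log2 scale. The count past 1.2-fold lower was 1 with a pseudocount of 5, since Psmd11 dropped out at -0.26. At 1.5-fold 0 members were higher and 0 lower, and at 1.1-fold 8 were higher and 6 lower. Centred by transcript length, 5 beta ring genes were above 0 in place of 1, and 29 of the 44 measured members in place of 22. In that setting 3 members were past 1.2-fold higher in place of 2, with Psmc3 added at 0.28, and 2 were lower. Without the 15 members that overlap another gene's exons or share over 20% of their words, 0 of 4 beta, 2 of 6 base and 13 of 29 measured members were above 0, and 0 were past 1.2-fold higher, since this leaves out Psmd13 and Psmd3; the lid then had 4 of 6 above 0 and a median of 0.12. Depth limits Psmg4, Psma8 and Psmb11 most.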
